A study of Homo sapiens with 22 samples.

Results

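The genes described here are 38 HOX genes of the HOXA, HOXB, HOXC and HOXD clusters, defined by their names. They are set against 15813 of 19974 protein-coding genes, those whose strand was at hand from RefSeq promoter sequences. Of the 38 HOX genes, 18 had no such sequence. HOX genes encode homeodomain transcription factors that give cells their position along the axes of the embryo. Their order along a chromosome follows the order of their use from head to tail, and genes in the same position of different clusters form a paralog group. In pluripotent cells the clusters are known to be largely covered by Polycomb complexes, whereas adult fibroblasts keep a pattern of active HOX genes that reflects the body site they came from. CTCF is a zinc finger protein that binds DNA and helps form the borders of chromatin domains, several of which are known to run through HOX clusters.

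Chromatin was compared between HFFc6, a clone of human foreskin fibroblasts immortalised with telomerase, and the embryonic stem cell line H1, also human. No treatment is given for either. Open chromatin was measured by ATAC-seq, where accessible DNA is cut by Tn5 transposase, in 8 HFFc6 libraries and 2 H1 libraries. CTCF was mapped in 2 HFFc6 libraries by Cut&Tag, which brings the same transposase to an antibody, and the titles of those libraries say HFF1 while their cell line label says HFFc6. The name of another list says CTCF and hESC, human embryonic stem cells. No sample label describes it and its assay is unknown, so that it appears below as the hESC-named list. Each list used here holds 1 set of called regions, with no value per library. No difference between the cell lines could therefore be set against a spread between replicates, and no test was made.

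The windows examined ran from the outermost end of the first to that of the last of the 38 genes in each cluster, with 50 kb on either side, 920.584 kb in all. They held 390 of the 532810 regions in the 4 lists. In build hg38 the bodies of the clusters were chr7:27100354-27200091 for HOXA, chr17:48528526-48728750 for HOXB, chr12:53938831-54056030 for HOXC and chr2:176087487-176190907 for HOXD. The HFFc6 ATAC list had 84 regions in the windows and the H1 ATAC list 129. The HFFc6 CTCF list had 67 and the hESC-named CTCF list 110. With regions limited to a −log10 q of at least 10, the order of the ATAC counts turned, to 73 in HFFc6 and 52 in H1. That limit kept 86.9% of the HFFc6 and 40.3% of the H1 regions in the windows. Of the whole lists it kept 85.2% in HFFc6 and 48.4% in H1, so the turn is not particular to HOX. Fold enrichment and −log10 q are the authors' values for each region and, apart from that common limit, were used only within a list. Intervals on shares are 95% Wilson intervals and cover counting error only.

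As a check of the cell types, ATAC regions were looked up within 1 kb of the starts of marker genes. Where no strand was listed for a marker, a region at either gene end counted. Of 10 embryonic stem cell markers, 4 were open in H1 alone (LIN28A, PRDM14, TDGF1 and ZFP42), none in HFFc6 alone, 3 in both and 3 in neither. POU5F1 and NANOG, defining genes of these cells, were among those in neither, judged at both ends of POU5F1 and at the outermost RefSeq start of NANOG. Of 12 fibroblast markers, 11 were open in both lists and THY1 in neither, so these markers did not separate the lines. Among 15 markers of keratinocytes, endothelium, blood, nerve and endoderm, 3 were open in H1 alone (KRT5, SOX1 and OTX2) and none in HFFc6 alone.

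Promoter sequences from RefSeq (GRCh38.p14, 250 bases before to 50 after a start) were at hand for 20 of the 38 genes, in 27 windows. The 5 below are shown because together they hold 4 different patterns at the gene start. Capitals mark matches to CNAGNNGGC, constant letters of the CTCF motif, or to TGATNNAT, a site of PBX and HOX proteins, both searched on either strand. HOXA7, chr7:27156626-27156925 on the minus strand, was open in HFFc6 alone. HOXA11, chr7:27185183-27185482 on the minus strand, was open and CTCF-marked in HFFc6 alone. HOXD10, chr2:176116528-176116827 on the plus strand, was open in H1 alone and overlapped a region of the hESC-named CTCF list alone. HOXB1, chr17:48530962-48531261 on the minus strand, had the same pattern. HOXA10, chr7:27179812-27180111 on the minus strand, overlapped a region of all 4 lists.
HOXA7: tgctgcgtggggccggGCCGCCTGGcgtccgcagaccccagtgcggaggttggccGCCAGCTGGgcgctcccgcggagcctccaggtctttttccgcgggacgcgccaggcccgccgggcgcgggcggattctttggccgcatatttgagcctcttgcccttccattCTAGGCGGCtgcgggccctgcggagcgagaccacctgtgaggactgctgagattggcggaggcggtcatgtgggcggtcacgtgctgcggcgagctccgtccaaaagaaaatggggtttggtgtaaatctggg
HOXA11: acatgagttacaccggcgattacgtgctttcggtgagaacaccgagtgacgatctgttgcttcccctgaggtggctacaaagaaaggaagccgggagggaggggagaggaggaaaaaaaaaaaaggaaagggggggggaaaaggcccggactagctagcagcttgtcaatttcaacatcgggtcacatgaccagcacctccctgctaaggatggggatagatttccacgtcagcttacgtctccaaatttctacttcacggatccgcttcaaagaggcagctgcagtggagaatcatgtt
HOXD10: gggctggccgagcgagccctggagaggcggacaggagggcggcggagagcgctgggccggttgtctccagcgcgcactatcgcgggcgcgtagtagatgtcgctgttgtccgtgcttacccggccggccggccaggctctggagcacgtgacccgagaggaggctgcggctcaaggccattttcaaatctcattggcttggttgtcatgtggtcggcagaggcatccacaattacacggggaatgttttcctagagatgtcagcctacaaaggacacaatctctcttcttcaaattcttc
HOXB1: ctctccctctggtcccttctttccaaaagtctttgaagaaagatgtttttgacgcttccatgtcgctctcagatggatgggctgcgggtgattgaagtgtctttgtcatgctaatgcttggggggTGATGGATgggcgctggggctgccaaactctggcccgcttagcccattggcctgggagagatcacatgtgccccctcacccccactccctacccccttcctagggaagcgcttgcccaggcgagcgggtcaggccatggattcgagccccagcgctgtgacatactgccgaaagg
HOXA10: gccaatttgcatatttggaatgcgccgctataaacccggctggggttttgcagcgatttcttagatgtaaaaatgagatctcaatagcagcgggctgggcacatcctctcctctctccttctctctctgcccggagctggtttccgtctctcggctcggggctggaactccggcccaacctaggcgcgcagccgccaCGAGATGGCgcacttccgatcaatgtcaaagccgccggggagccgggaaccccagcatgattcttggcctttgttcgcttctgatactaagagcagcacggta
The CTCF letters matched in 8 of the 27 HOX windows (29.6%) and in 8624 of all 35116 promoter windows (24.6%). Of those 8 HOX windows, 4 overlapped a CTCF region of at least 1 list, and of the remaining 19, 11 did. HOXA7 had 3 matches and no CTCF region, HOXA10 had 1 match and a region of both lists, and HOXA11 and HOXD10 had no match and a region of 1 list. Over all promoters on the chromosomes of the lists, the letters matched in 32.2% of the windows that overlapped an HFFc6 CTCF region and in 17.6% of those that did not. The PBX and HOX letters matched in 3 HOX windows (11.1%), those of HOXA2, HOXB1 and HOXD11, and in 7.40% of all windows. The HOX windows had a median observed over expected CpG ratio of 0.849, against 0.579 over all promoters, at a median GC content of 58.0% against 58.7%.

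An ATAC region lay within 1 kb of the start in both lists for 19 of the 38 genes, against a background of 68.4% of the protein-coding genes. The start was open in HFFc6 alone for 7 genes (background 5.07%), in H1 alone for 4 (background 8.31%) and in neither list for 8 (background 18.3%). With the −log10 q limit of 10, 9 starts were open in both lists and 14 in HFFc6 alone, and with a limit of 500 bp from the start 12 were open in both and 11 in HFFc6 alone. Of the 19, 6 kept this state under all 7 settings of width, threshold, list size and gene start that were tried. Among these settings, any listed start could not alter the 18 genes for which no promoter sequence was at hand. HOXA had 4 starts open in HFFc6 alone and none open in H1 alone, whereas HOXB had 1 open in HFFc6 alone, 2 open in H1 alone and 5 open in neither. HOXC had 1 of each kind and 2 in neither, and HOXD had 1 of each kind and none in neither. In paralog groups 9 to 13, at the tail end of the clusters, HFFc6 alone opened 4 of 16 starts, H1 alone 2 and neither list 1. In groups 1 to 4, at the head end, HFFc6 alone opened 1 of 11, H1 alone 2 and neither list 3. In groups 5 to 8, HFFc6 alone opened 2 of 11, H1 alone none and neither list 4. HOXC4, HOXC5 and HOXC6 share the outermost start at position 54016888 of chromosome 12 and so count as 3 starts with the same regions.

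**Figure D1:**
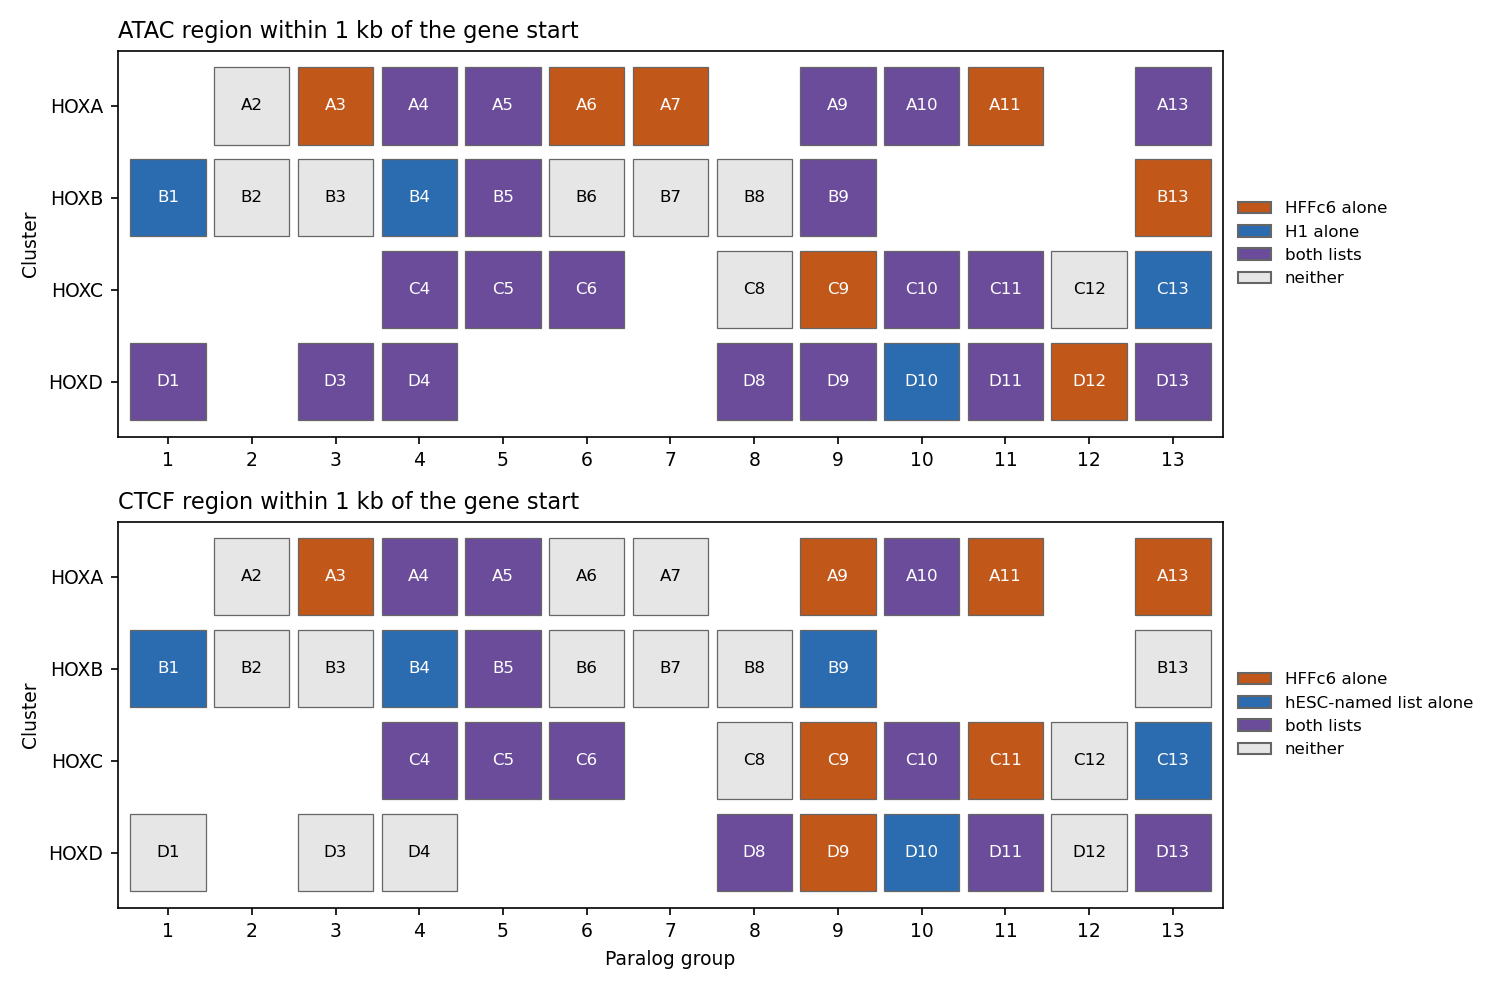
State of the 38 gene starts by cluster (rows) and paralog group (columns), for ATAC regions (top) and CTCF regions (bottom) within 1 kb. Orange marks HFFc6 alone (7 ATAC, 7 CTCF), blue the H1 list alone (4) or the hESC-named list alone (5), purple both lists and grey neither; the grey cells of HOXB run through B2, B3, B6, B7 and B8 in both panels.

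Among the genes open in HFFc6 alone, HOXA7, a gene of the trunk-level part of HOXA, had a region of 1536 bp across its start (chr7:27155529-27157064) with a fold enrichment of 6.14 and a −log10 q of 278. The nearest H1 region was 4102 bp away. HOXC9, whose mouse counterpart sets thoracic identity in motor neurons, had a region of 1286 bp with a fold enrichment of 6.50, and the nearest H1 region was 4426 bp away. HOXA7 and HOXC9 kept this state under all 7 settings, and the other 5 genes did not. HOXA11, needed for the forearm and uterus in mice, had a region of 2853 bp with a fold enrichment of 4.97, and the nearest H1 region was 1745 bp away. HOXA3, a gene of pharyngeal arch and thymus development, had a region with a fold enrichment of 3.31 at its outermost start, with an H1 region 1252 bp away.

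The remaining 3 starts open in HFFc6 alone rested on weak or distant regions. HOXA6 lay 289 bp from a region of 226 bp with a fold enrichment of 1.40, at percentile 0.0122 of the HFFc6 list. HOXB13, a prostate and tail-bud gene, had a region of 276 bp with a fold enrichment of 2.41. HOXD12, a digit gene, lay 971 bp from the edge of a region with a fold enrichment of 8.999 (chr2:176096710-176098824). That region itself overlapped 2 H1 regions, the nearest of them 1906 bp from the start.

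The starts open in H1 alone were those of HOXB1, HOXB4, HOXC13 and HOXD10, and all 4 kept this state under the 7 settings. HOXC13, a gene of hair and nail formation, had a region with a fold enrichment of 13.2 and a −log10 q of 64.8 (chr12:53938401-53938930), at percentile 88.0 of the H1 list. The nearest HFFc6 region was 13506 bp away. HOXD10, a gene of the lower trunk and limb, had a fold enrichment of 8.47 in H1, and the nearest HFFc6 region was 5475 bp away, within a stretch of 14.866 kb with no HFFc6 region. HOXB1, which specifies a segment of the hindbrain, had a fold enrichment of 6.66 in H1 and its nearest HFFc6 region 12501 bp away. HOXB4, known for the expansion of blood stem cells, had a fold enrichment of 5.63 in H1 and its nearest HFFc6 region 6757 bp away. Each of these 4 starts also had a region of the hESC-named CTCF list and none of the HFFc6 CTCF list within 1 kb.

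The 8 starts open in neither list were HOXA2, HOXB2, HOXB3, HOXB6, HOXB7, HOXB8, HOXC8 and HOXC12. HOXB3 and HOXC8 kept this state under all 7 settings. The nearest regions lay 3561 bp (HFFc6) and 3726 bp (H1) from the start of HOXB3, and 2589 bp (HFFc6) and 2614 bp (H1) from that of HOXC8, a gene of the trunk. Those of HOXB6, HOXB8 and HOXA2 were between 1465 and 3415 bp away in the 2 lists. HOXB2 and HOXC12 missed the 1 kb limit by less, with regions 1316 and 1361 bp away in HFFc6 and 1309 and 1578 bp away in H1. HOXB7 had its nearest HFFc6 region 7305 bp away and its nearest H1 region 1030 bp away.

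Of the 19 starts open in both lists, HOXA4 had the highest fold enrichment of its cluster in either list, 13.5 in HFFc6 and 8.83 in H1. HOXA13, a gene of the hand, foot and genital tract, had a fold enrichment of 9.53 in HFFc6 (1055 bp, across the start) and 4.04 in H1 (249 bp, 500 bp from the start). HOXC10 had 8.33 in HFFc6 and 10.9 in H1, and HOXD1 had 8.11 in HFFc6 and 9.50 in H1. Since the lists are on scales of their own, the pairs of values are not compared. HOXD4 and HOXD3 share 1 weak H1 region of 162 bp, with a fold enrichment of 3.004.

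HOX regions of the HFFc6 ATAC list were wide. Their median width was 945.5 bp, against 707 bp over the whole list, and that of the H1 regions was 270 bp, against 301 bp over the whole H1 list. Regions of 1500 bp or more made up 17 of the 84 HFFc6 regions (20.2%) and 7.72% of the whole list. HOXA held 6 of them, HOXC 5, HOXD 6 and HOXB none. The widest lay inside HOXA10, a gene of the uterus and limb (chr7:27172471-27176065, 3595 bp, fold enrichment 3.40), and it covered the inner RefSeq start of that gene at chr7:27174271-27174570, which no H1 region overlapped. The widest of HOXD reached across the start of HOXD11 (chr2:176103922-176107386, 3465 bp, fold enrichment 6.89). The widest of HOXC lay between HOXC12 and HOXC11 (chr12:53965462-53968665, 3204 bp, fold enrichment 4.24). The widest of HOXB, 1391 bp, lay in the flank, 46457 bp from HOXB1. In the H1 list the widest regions were 739 bp in the HOXA flank, 672 bp between HOXB9 and HOXB13, 859 bp inside HOXC4 and 1115 bp at the start of HOXD1.

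HFFc6 ATAC regions covered 27.9% of the HOXA body, against 5.94% for H1 regions. They covered 20.8% of HOXD, against 7.44% for H1, and 12.4% of HOXC, against 4.18% for H1. In HOXB the 2 lists covered like shares, 3.65% for HFFc6 and 3.95% for H1. Over all protein-coding gene spans the shares were 5.29% for HFFc6 and 2.66% for H1, a ratio of 1.99, beside ratios of 4.69 in HOXA, 2.96 in HOXC, 2.80 in HOXD and 0.924 in HOXB. Gene spans leave out the DNA between genes that cluster bodies include, and the density of gene starts was not matched. With each region replaced by 500 bp around its summit, the order turned in HOXC and HOXD, to 3.84% for HFFc6 against 6.46% for H1 in HOXC and 7.74% for HFFc6 against 11.5% for H1 in HOXD, while HOXA had 11.6% for HFFc6 and 9.52% for H1. In HOXB that setting gave 2.85% for HFFc6 and 5.98% for H1.

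**Figure D2:**
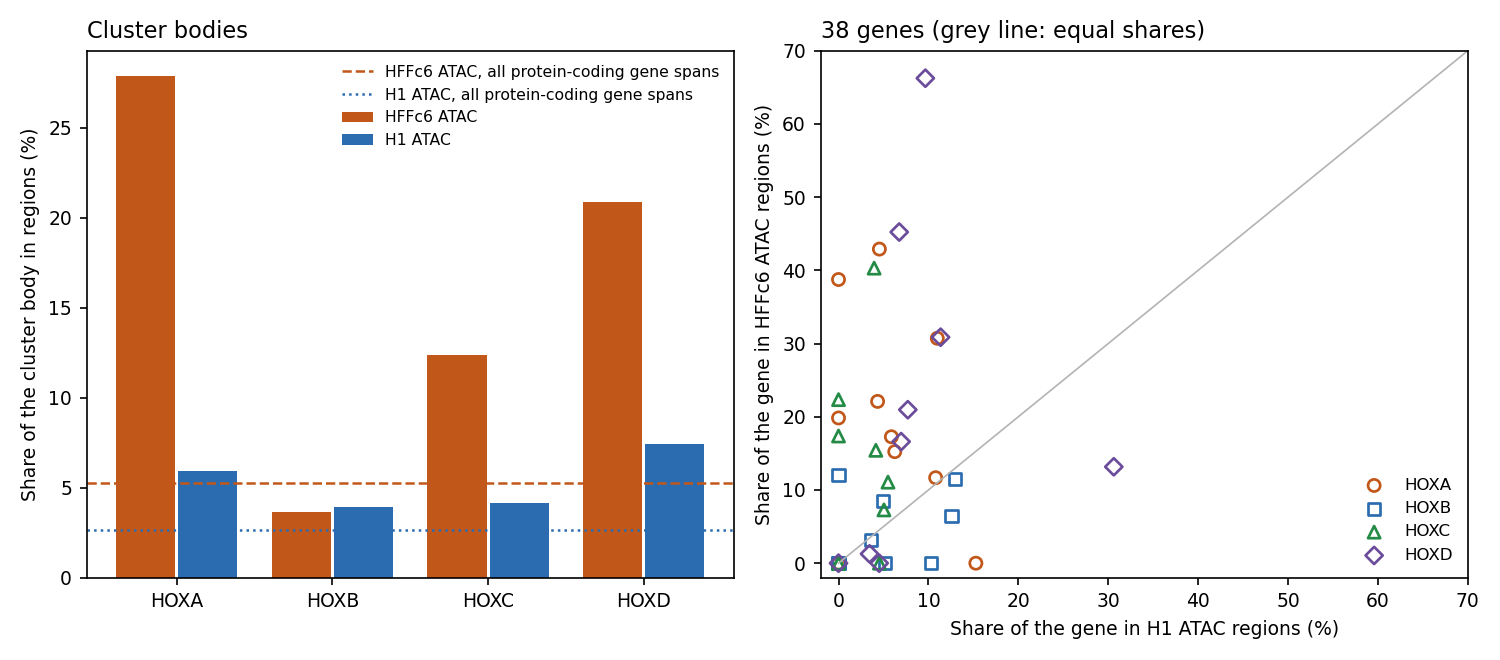
Left, the share of each cluster body in ATAC regions (%, bars), with the shares over all protein-coding gene spans as lines (5.29% HFFc6, 2.66% H1). Right, the same share for each of the 38 genes, HFFc6 (vertical axis, %) against H1 (horizontal axis, %); most points of HOXA, HOXC and HOXD lie above the line of equal shares and those of HOXB near it or at 0.

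Over single genes, the median share in HFFc6 ATAC regions was 11.6%, against 4.55% in H1 regions, and 12 genes had none in each list. The genes given here were picked after their values were seen. HOXD4 reached 66.2% in HFFc6, against 9.66% in H1. HOXD8 had 45.2% in HFFc6 and 6.75% in H1, HOXA10 had 42.9% in HFFc6 and 4.55% in H1, and HOXC11 had 40.3% in HFFc6 and 3.96% in H1. HOXA7 had 38.8% in HFFc6 and none in H1. The converse was seen at HOXD1, with 13.2% in HFFc6 and 30.6% in H1, and at HOXA2, with none in HFFc6 and 15.3% in H1. The H1 share was also the higher at HOXB1, HOXB2, HOXB3, HOXB4, HOXB9, HOXC13, HOXD10 and HOXD11. The medians by cluster were 18.6% in HFFc6 and 5.21% in H1 for HOXA, 1.58% in HFFc6 and 4.30% in H1 for HOXB, 11.1% in HFFc6 and 3.96% in H1 for HOXC, and 16.6% in HFFc6 and 6.97% in H1 for HOXD.

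**Figure D3:**
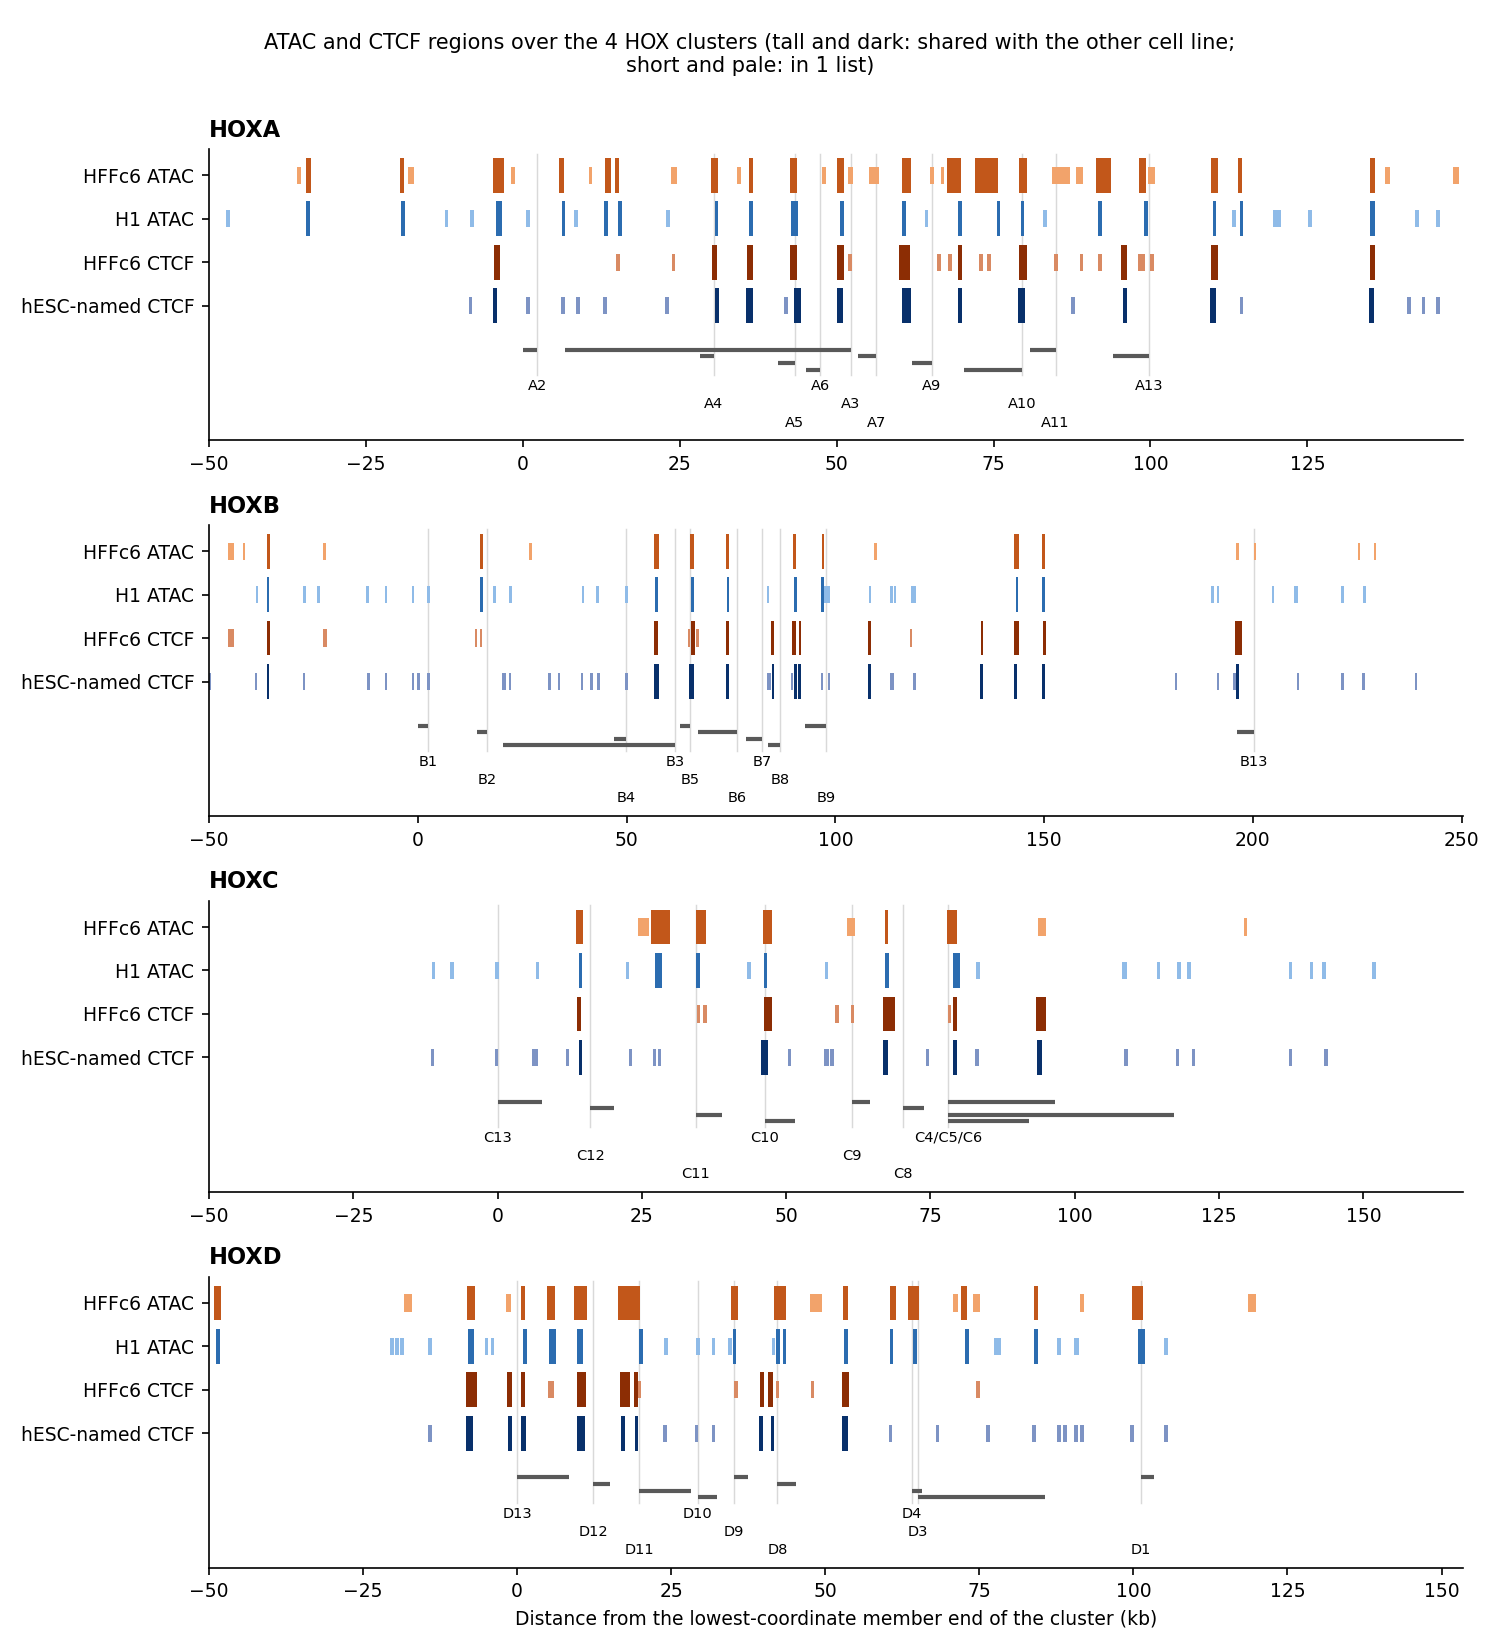
Regions of the 4 lists along each HOX window, in kb from the end of the body with the lowest coordinate. Tall dark boxes are shared with the other list of the same assay and short pale boxes are in 1 list, with very narrow boxes widened to stay visible; grey bars are genes and thin lines their starts, HFFc6 boxes are wide in HOXA, HOXC and HOXD, and a stretch of 39.756 kb between HOXB9 and HOXB13 has no ATAC region in either list.

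In the HFFc6 ATAC list 48 of the 84 HOX regions (57.1%, 46.5 to 67.2) overlapped an H1 region, against 34.7% of the whole list. In the H1 list 56 of 129 (43.4%, 35.2 to 52.0) overlapped an HFFc6 region, against 31.8% of the whole list. Away from starts, 53.3% of the HFFc6 regions were shared (40.9 to 65.4), against 30.5% of 137278 such regions in the genome. The genome values used starts of the 38 HOX genes and of protein-coding genes with a listed strand, on chromosomes that held any. Regions at starts of other genes there counted as away. Within 1 kb of a HOX start, 66.7% were shared (46.7 to 82.0), against 90.4% of all regions at starts. H1 regions had the same order, 37.9% away from starts (29.1 to 47.5), against 27.6% of such regions in the genome, and 65.4% at starts (46.2 to 80.6), against 84.1%. The share of HFFc6 regions found in H1 dropped to 11.9% when an overlap had to span 50% of the region. It was 37.0% with the −log10 q limit of 10, which left 53.8% of H1 regions found in HFFc6.

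Of the 48 shared HFFc6 regions, 44 were wider than the summed H1 regions they overlapped, with a median of 1075.5 bp in HFFc6 against 355.5 bp in H1, and 8 overlapped 2 or more H1 regions. Over the whole lists shared regions had median widths of 894 bp in HFFc6 and 394 bp in H1. The highest fold enrichments of a cluster fell on 1 position in both lists at HOXA4 (above) and between HOXD8 and HOXD4 (chr2:176140327-176141170, fold enrichment 10.2 in HFFc6; chr2:176140538-176141019, 12.9 in H1). In HOXB the highest HFFc6 region lay inside HOXB3, upstream of HOXB4 (chr17:48585107-48586183, 13.1), and in HOXC it lay at the shared start of HOXC4, HOXC5 and HOXC6 (chr12:54016673-54018430, 9.22). The highest H1 regions of these clusters overlapped no HFFc6 region. They were chr17:48636579-48636844, 10221 bp from HOXB9 (16.2), and chr12:54075887-54076536, 58999 bp from the HOXC4 start (14.8).

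Regions in 1 list alone were assigned to the nearest start, however far away. The outermost starts of each cluster therefore also took those of the 50 kb flanks. The number in HFFc6 alone less the number in H1 alone was lowest at HOXA13 in HOXA, with 3 HFFc6-only and 6 H1-only regions, and at HOXB9 in HOXB, with 1 HFFc6-only and 7 H1-only regions. It was lowest in HOXC at the shared start of HOXC4, HOXC5 and HOXC6, with 2 HFFc6-only and 9 H1-only regions, and in HOXD at HOXD13, with 2 HFFc6-only and 6 H1-only regions. HOXA13, HOXD13 and the shared HOXC start are outermost in their clusters. All 6 H1-only regions assigned to HOXA13 lay in the flank, 13222 to 45834 bp from its start. The highest balance was 1 extra HFFc6-only region, at HOXA4, HOXA6, HOXA3, HOXA7, HOXA9 and HOXA11 in HOXA and at HOXC11 in HOXC. In HOXB and HOXD no gene had a balance above 0. HOXB held 9 of the 36 HFFc6-only regions and 27 of the 73 H1-only regions. Over the whole lists 101679 regions were found in HFFc6 alone and 129540 in H1 alone. With the −log10 q limit of 10 the order in the windows turned, to 46 HFFc6-only and 24 H1-only regions. The limit kept 85.2% of the whole HFFc6 list and 48.4% of the whole H1 list.

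Both CTCF lists had a region at the start of 11 genes (background 58.9%). The HFFc6 list alone had one at 7 (background 7.65%) and the hESC-named list alone at 5 (background 7.76%), and 15 starts had none (background 25.7%). HFFc6 alone marked HOXA3, HOXA9, HOXA11, HOXA13, HOXC9, HOXC11 and HOXD9. The hESC-named list alone marked HOXB1, HOXB4, HOXB9, HOXC13 and HOXD10. The regions at these starts were mostly low. In HFFc6 the fold enrichment was 5.63 at HOXA13, 4.46 at HOXC11, 3.73 at HOXC9, 2.81 at HOXA3, 2.74 at HOXA11, 2.31 at HOXD9 and 1.53 at HOXA9. In the hESC-named list it was 7.59 at HOXC13, 5.82 at HOXB4, 4.66 at HOXB1, 4.23 at HOXB9 and 2.67 at HOXD10. HOXA13, HOXC9, HOXC11, HOXB4 and HOXC13 kept their state under all 7 settings.

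Of the 67 HFFc6 CTCF regions in the windows, 37 (55.2%, 43.4 to 66.5) overlapped the hESC-named list, against 50.9% of the whole list. Of the 110 hESC-named regions, 37 (33.6%, 25.5 to 42.9) overlapped the HFFc6 list, against 41.3% of the whole list. Shared regions had a median fold enrichment of 7.86 in HFFc6, against 2.85 for the 30 regions that were not shared. In the hESC-named list the medians were 10.9 for shared regions and 4.22 for the 73 in that list alone. CTCF regions found in HFFc6 alone sat low in their own list, at a median percentile of 6.90, against 33.96 for HFFc6-only regions of the whole list.

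**Figure D4:**
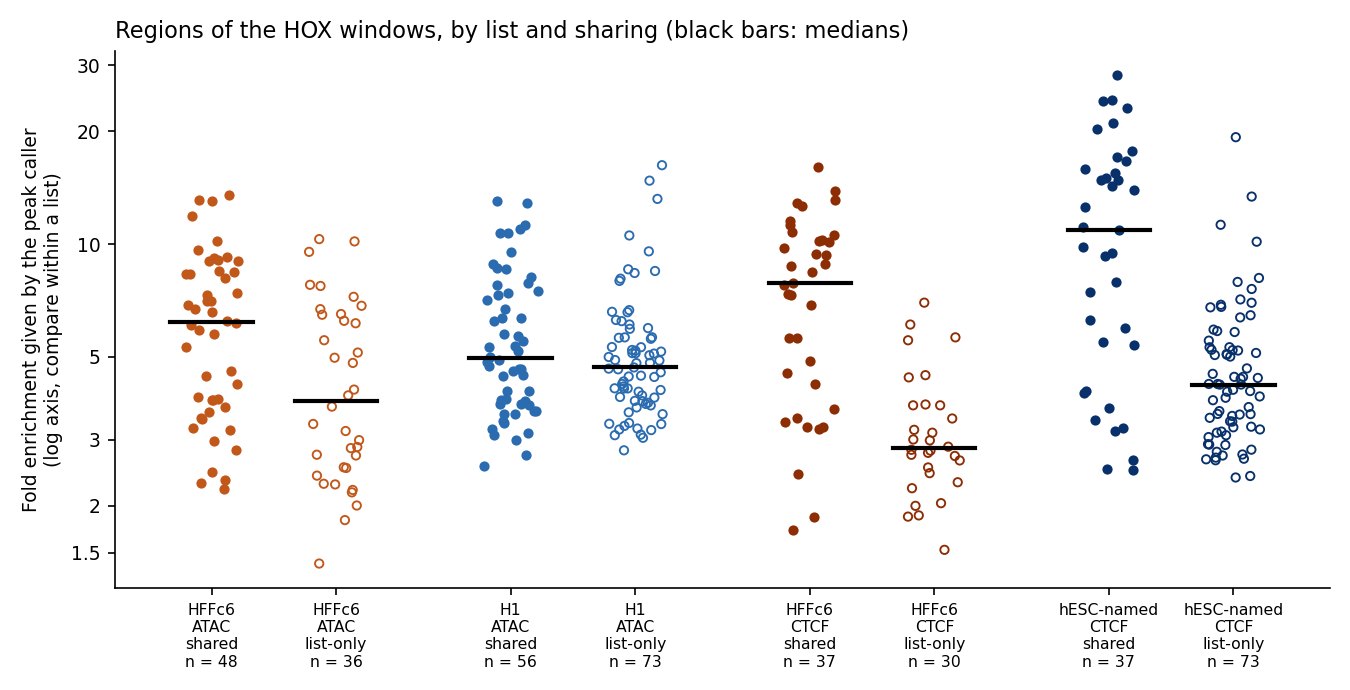
Fold enrichment of each HOX region (points, log axis), as the peak caller gave it, by list and by whether the region is shared with the other list of the same assay (filled) or in 1 list (open), with medians as bars. Shared CTCF regions stand above list-only ones, with medians of 7.86 against 2.85 in HFFc6 and 10.9 against 4.22 in the hESC-named list; in the H1 ATAC list the medians are 4.95 and 4.68.

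Shared CTCF regions recurred between the trunk and tail-end genes of all 4 clusters, a pattern picked out after the values were seen. Between HOXA7 and HOXA9 the HFFc6 region chr7:27160361-27162048 had a fold enrichment of 10.2, the highest of HOXA in that list, and the hESC-named region chr7:27160813-27162144 one of 16.7. Between HOXB8 and HOXB9 the HFFc6 value was 10.8 (chr17:48618120-48619168) and the hESC-named one 14.8 (chr17:48618633-48619221). Between HOXC9 and HOXC8 the HFFc6 value was 10.5 (chr12:54005671-54007765) and the hESC-named one 21.0 (chr12:54005575-54006469), each the highest of HOXC in its list. Between HOXD9 and HOXD8 the HFFc6 value was 7.34 (chr2:176126930-176127457) and the hESC-named one 24.1 (chr2:176126710-176127427). The HOXA, HOXB and HOXC sites were open in both ATAC lists, and the HOXD site was in neither. In mouse, CTCF sites between Hoxa5 and Hoxa6 and between Hoxa7 and Hoxa9 are known to separate active from Polycomb-covered chromatin.

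Shared CTCF regions were not limited to those intervals: 18 of the 32 intervals between neighbouring starts held at least 1 shared HFFc6 CTCF region by its midpoint, and 23 held a shared HFFc6 ATAC region. The highest of HOXB in the hESC-named list lay inside HOXB6 (chr17:48602244-48603042, 28.3), at percentile 99.3 of that list, with a value of 11.5 in HFFc6. The highest of HOXB in HFFc6 lay between HOXB9 and HOXB13 (chr17:48678144-48679019, 13.8), with 24.2 in the hESC-named list. The highest of HOXD in HFFc6 lay between HOXD8 and HOXD4 (chr2:176140244-176141328, 16.02), at percentile 98.6 of that list, with 17.03 in the hESC-named list. At the start of HOXA10, whose promoter window above holds the marked CTCF letters, the fold enrichment was 8.75 for HFFc6 and 17.8 for the hESC-named list, which is the highest of HOXA in that list. The widest CTCF regions were 1688 bp between HOXA7 and HOXA9, 1624 bp at the far end of HOXB13, 2095 bp between HOXC9 and HOXC8 and 1745 bp in the HOXD flank in HFFc6. In the hESC-named list they were 1332 bp at the same HOXA site, 1141 bp at HOXB5, 1129 bp at HOXC10 and 1269 bp near HOXD12.

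ATAC regions overlapped 54 of the 67 HFFc6 CTCF regions in HFFc6 (80.6%, 69.6 to 88.3), against 85.0% of the whole list, and 37 of them in H1 (55.2%, 43.4 to 66.5), against 51.9%. For the 110 hESC-named regions the counts were 39 in HFFc6 (35.5%, 27.1 to 44.7), against 42.7% of the whole list, and 69 in H1 (62.7%, 53.4 to 71.2), against 72.6%. With 500 bp around summits, 64.2% of the HFFc6 CTCF regions lay in HFFc6 ATAC regions. Of the 37 shared HFFc6 CTCF regions, 25 lay in open chromatin of both lines, 5 of HFFc6 alone, 2 of H1 alone and 5 of neither line. Open in both were thus 67.6%, against 73.4% of all shared HFFc6 CTCF regions, and open in neither 13.5%, against 5.999%. Open chromatin of HFFc6 held 24 of the 30 CTCF regions found in HFFc6 alone (80%, 62.7 to 90.5), against 87.1% over the whole list. Cut&Tag for CTCF and ATAC-seq both use Tn5, and its part in this overlap was not tested.

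Of the 73 ATAC regions of the windows found in H1 alone, 40 overlapped a hESC-named CTCF region (54.8%, 43.4 to 65.7), against 30.1% of all such regions in the genome. The share was uneven between clusters and highest in HOXB, with 20 of 27 (74.1%, 55.3 to 86.8). It was 8 of 16 (50%) in HOXC and 8 of 16 (50%) in HOXD. In HOXA it was 4 of 14 (28.6%, 11.7 to 54.6), not above the share of 30.1% in the genome. HFFc6-only open regions overlapped HFFc6 CTCF regions in 13 of 36 cases (36.1%, 22.5 to 52.4), against 30.1% of all HFFc6-only regions. Outside the gene-dense part of HOXB, the 98.404 kb between HOXB9 and HOXB13 had 4 HFFc6 and 10 H1 ATAC regions and 6 HFFc6 and 11 hESC-named CTCF regions.

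The clusters also hold microRNA genes, which act on HOX messenger RNAs among others. The mature sequences below (RefSeq, GRCh38.p14) are shown to group them by their seeds, bases 2 to 8, in capitals.
miR-10a-5p: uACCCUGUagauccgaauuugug
miR-196a-5p: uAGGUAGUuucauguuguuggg
miR-196b-5p: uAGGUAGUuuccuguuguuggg
miR-615-3p: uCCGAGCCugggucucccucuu
The hairpins MIR196A1 in HOXB and MIR196A2 in HOXC give the same mature miR-196a-5p, which shares its seed with miR-196b-5p. No ATAC region lay within 1 kb of either of them in the 2 lists, whereas MIR196B in HOXA had one in both, with a fold enrichment of 2.99 in HFFc6 and 5.18 in H1. MIR10A, next to HOXB4, had none in either list, and its relative MIR10B, upstream of HOXD4, had one within 1 kb in HFFc6 alone, 432 bp away with a fold enrichment of 3.18. That region itself overlapped an H1 region, which lay 1328 bp from MIR10B. MIR615, within HOXC5, had one in HFFc6 alone, 167 bp away with a fold enrichment of 7.78, and the nearest H1 region was 12018 bp away. MIR3185, beside HOXB13, was open in HFFc6 alone and MIR7704 at HOXD1 in both.

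Among 19 other genes of the clusters, mostly antisense and intergenic transcripts but also PRAC1 and PRAC2, 8 starts were open in both lists and 5 in neither. HOXA11-AS, HOXC-AS1 and HOXD-AS2 were open in HFFc6 alone, and HOXC-AS2, HOXC13-AS and PRAC2 in H1 alone. These genes overlap or neighbour the HOX genes and may share their regions. Over the protein-coding genes, the shares to set beside these and the next counts were 68.4% open in both lists and 18.3% in neither, with 5.07% open only in the HFFc6 list and 8.31% only in the H1 list. Those shares rest on the start alone, whereas members of these gene lists without a listed strand counted at either gene end. Of 9 TALE cofactors, which bind DNA together with HOX proteins, 8 were open in both and MEIS3 in neither. Of 6 ParaHox genes, the relatives of HOX genes elsewhere in the genome, 3 were open in both and CDX1, CDX2 and CDX4 in H1 alone. Of 6 retinoic acid genes, 3 were open in both, CYP26B1, which degrades the signal, in HFFc6 alone, and the receptors RARA and RARB in H1 alone. Of 15 other clustered homeobox genes, 12 were open in both, IRX1 and IRX6 in H1 alone and 1 in neither. Of 12 genes that flank the clusters, 9 were open in both and the homeobox genes EVX1 and EVX2 in H1 alone.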

How the data were processed

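The 4 lists used are narrowPeak tables, 1 for each sample group analysed and 1, the hESC-named list, without a sample group. Per the submitters' processing notes the authors used BWA, MACS2 and bedtools with build hg38; versions, filters and the joining of libraries are not stated there. Depths per library are unknown, and nothing says that libraries came from separate cultures. Per region the authors deposited an integer score, a fold enrichment (a ratio to the caller's background), a −log10 p-value, a −log10 q-value of at least 1.30 and a summit offset in bases, of which the score and the p-value were not used. SMC1, H3K4me3 and H3K27ac, measured in 10 of the 22 libraries, were not analysed here.

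Overlap meant 1 shared base. A gene start was the outermost RefSeq 5′ end, matched within 1 kb. For markers and members of the other gene lists without a listed strand, either gene end counted. A strand was at hand for 20 of the 38 genes, those with a RefSeq promoter sequence. The strand of the other 18 was taken from the rest of their cluster, since each cluster has 1 strand, and using either gene end was added as an alternative after the data were seen, as was using any listed start. All 38 genes were eligible. Those named with values had starts open or CTCF-marked in 1 list alone or open in neither, and the highest and widest region per cluster and list and the extreme balances per cluster were named. From the other gene lists up to 4 members open in 1 list alone were named. Genes named among the starts open in both lists and for the share of the gene in regions were picked after the values were seen. Membership rests on gene names, but this group of genes and the lists were chosen with earlier results of these data known. Alternatives were a −log10 q of at least 10, equal list sizes, an overlap of 50%, 500 bp around summits, start windows of 500 bp and 2 kb, and flanks of 0 and 100 kb. Overlaps were computed with Python 3.11.15, numpy 2.4.6, pandas 2.3.3 and scipy 1.17.1, and the overlap rules were checked against direct comparison for 84 regions, with 0 disagreements.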

Additional observations from a re-analysis of the deposited data

How the results depend on the processing

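Of 126 values recomputed under 10 settings, 93 stayed within 1.5 times the reported count or inside the reported interval and 33 moved. With a −log10 q of at least 10, 42 HFFc6 CTCF, 52 H1 ATAC and 52 regions of the hESC-named list were left in the windows. The shared share became 37.0% for HFFc6 ATAC, 53.8% for H1 ATAC and 50% for the hESC-named list. Starts open in both lists numbered 9 and in HFFc6 alone 14, and starts with CTCF in the hESC-named list alone 2. H1 coverage was 3.28% (HOXA), 2.46% (HOXB), 1.19% (HOXC) and 3.59% (HOXD). An overlap of 50% gave 11.9% of HFFc6 ATAC regions shared. With 500 bp around summits, 64.2% of HFFc6 CTCF regions lay in HFFc6 ATAC regions. HFFc6 against H1 coverage was then 11.6% against 9.52% in HOXA, 2.85% against 5.98% in HOXB, 3.84% against 6.46% in HOXC and 7.74% against 11.5% in HOXD. Start windows of 500 bp gave 12 starts open in both, 11 in HFFc6 alone and 6 with CTCF in both. Windows of 2 kb gave 3 starts open in neither, 8 with CTCF in the hESC-named list alone and 6 with CTCF in neither. Without flanks, 83 H1 ATAC regions remained, 54.2% of them shared. Taking either gene end, an alternative added after the data were seen, gave 5 starts open in neither, 9 with CTCF in the hESC-named list alone and 6 with CTCF in neither. Apart from the width and threshold settings, where the construction of the alternative changes the regions counted, the cause of these moves was not tested. No paired analysis was possible because the lists carry no value per library, and for the same reason no replicate could be left out. Equal list sizes, flanks of 100 kb and any listed start moved none of the values. The last of these could not alter the 18 genes without a promoter sequence, for which no other start was at hand.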
